A study of Mus musculus with 6 samples.

Results

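Laminins, nidogens and collagen IV build the basement membrane, the thin sheet of matrix that surrounds each cardiomyocyte and underlies the endothelium, the endocardium and the epicardium. The mRNAs of 10 of its genes were followed in embryonic mouse hearts: the laminin alpha chain genes Lama2, Lama4 and Lama5, the beta chain genes Lamb1 and Lamb2, the gamma chain gene Lamc1, the nidogen genes Nid1 and Nid2 and the collagen IV genes Col4a1 and Col4a2. They were picked by name, with earlier results of these data known, and all 10 were found among the 26191 genes of the deposited table.

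The study asked what the loss of Mrps5, a protein of the small mitochondrial ribosomal subunit, does to the developing heart. Hearts were collected at embryonic day 12 from Mrps5 fl/fl embryos (control, 3 libraries) and from their Mrps5 fl/fl; cTNT-Cre littermates (mutant, 3 libraries), and each library was made from a pool of hearts. Both groups carried floxed Mrps5 alleles, and only the mutants carried Cre, so an effect of Cre itself cannot be told apart from that of the deletion. The cardiac troponin T promoter drives Cre in cardiomyocytes, and the whole heart was sequenced, so the cells that were not targeted were measured together with those that were. Values are FPKM, which correct fragment numbers for the length of the transcript and the size of the library, and they are listed here in the order of the replicate numbers, 1 to 3 for each group.

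A laminin is a cross-shaped trimer of 1 alpha, 1 beta and 1 gamma chain that is put together in the endoplasmic reticulum before secretion. At the cell surface laminins bind integrins and dystroglycan through the alpha chain and join into a network. Collagen IV forms a separate, covalently linked network that gives the sheet its strength, and nidogens and the proteoglycan perlecan tie both networks together. In striated muscle the alpha 2 chain, the product of Lama2, links the sheet to dystroglycan and so to the cytoskeleton, and its loss in people causes a congenital muscular dystrophy.

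Mrps5 (ENSMUSG00000027374), the targeted gene, stood at 9.65, 11.4 and 10.4 FPKM in controls. Its FPKM was lower in mutant replicates 1 and 2 (5.28 and 7.41), but the library labelled mutant replicate 3 was at 10.4, inside the control range, and the counts of calls, the ratios and the fold changes of the 10 genes and of most other named genes were therefore also computed without it. The log2 fold change of Mrps5 was -0.44 (limma adjusted p = 0.338), -0.66 without mutant replicate 3 and -0.23 without mutant replicate 1. Summed FPKM were between 454692 and 515952 per library, and the number of genes at 1 FPKM or more was between 12830 and 13514. FPKM do not give fragment counts, so the depth behind each value is unknown. Of 12 cardiomyocyte markers, none was at 0 in all libraries, and their summed FPKM was between 12566 and 15156 in controls and between 11032 and 12291 in mutants, with 9 of the 12 lower in each mutant library than in all controls, beside 13% of all genes tested. Erythroid markers took 12.2%, 13.3% and 12.0% of the FPKM in controls and 23.5%, 10.8% and 22.0% in mutants.

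The main difference among the 10 genes was in the laminin alpha chains, where Lama2 was lower and Lama5 higher in each mutant library than in all controls. Col4a2 was the only other gene of the 10 whose groups did not overlap, and it was higher in mutants. None of the 10 reached an adjusted p under 0.05 in limma, a threshold that 0.083% of the 13260 genes tested passed. At an unadjusted p under 0.05 stood 3 of the 10 genes, 1 lower (Lama2) and 2 higher (Lama5 and Col4a2), beside 15% of all genes tested, 9.43% lower and 5.57% higher. Without mutant replicate 3 the count was 2, beside 15.3% of all genes, since Col4a2 then had an unadjusted p of 0.0846 in limma. Col4a2 likewise lost this call without mutant replicate 2, control replicate 1 or control replicate 3. The same 3 of 10 genes did not overlap between the groups, beside 20.8% of all genes tested, 13% lower and 7.74% higher. Without mutant replicate 3 these 3 genes again did not overlap, beside 32.6% of all genes. All 10 passed the filter of at least 1 FPKM in at least 3 libraries, 3 with a fold change under 0 and 7 with one above, and their median log2 fold change was 0.08 beside -0.02 over all genes tested. The count with no overlap depended on the scaling: it was 6 of 10 after rescaling without erythroid genes (1 lower and 5 higher, beside 20.9% of all genes) and 6 of 10 after quantile normalization (2 lower and 4 higher, beside 21.2%), with no adjusted p under 0.05 in either.

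**Figure D1:**
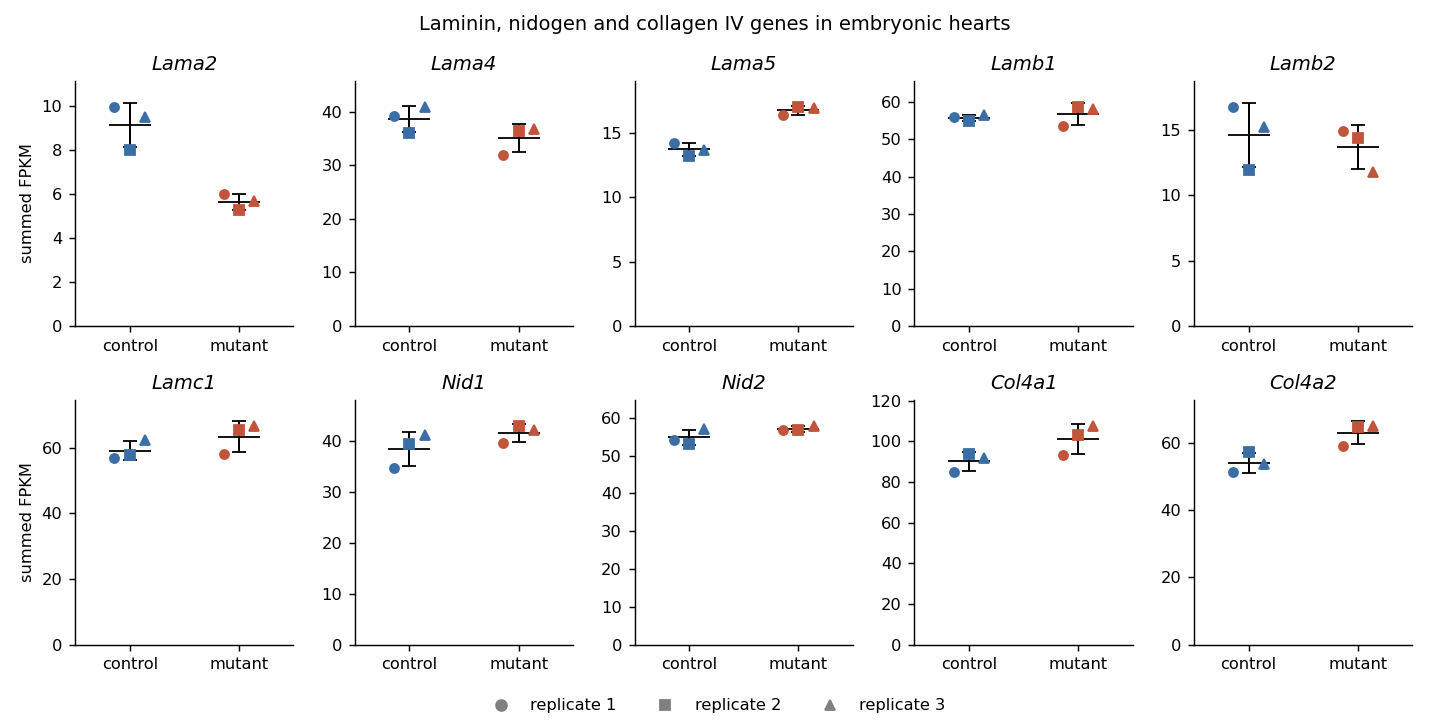
Summed FPKM of the 10 genes in each library, with control and mutant hearts on the x axis and every y axis starting at 0. Points are libraries, marked by replicate number, and bars give the mean and SD of 3 libraries. The mutant points lie below all control points for Lama2 (5.27 to 5.99 beside 8.01 to 9.95) and above all control points for Lama5 and Col4a2.

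Lama2 (ENSMUSG00000019899) encodes the alpha 2 chain of muscle basement membranes. Its FPKM was 9.95, 8.01 and 9.49 in controls and 5.99, 5.27 and 5.68 in mutants. The lowest control library thus stood above the highest mutant library. The mean was 9.15 ± 1.01 (SD, n = 3) in controls, against 5.65 ± 0.364 (SD, n = 3) in mutants, a ratio of 0.617. On the log2(FPKM + 1) scale the difference was -0.61 (standard error 0.11, 95% confidence interval -0.85 to -0.37, limma adjusted p = 0.0837). It was -0.61 without mutant replicate 3 (adjusted p = 0.0501) and -0.59 when libraries were rescaled without erythroid genes. In bulk tissue, fewer cells of a type and less mRNA per cell cannot be told apart. The summed cardiomyocyte markers were lower in the same mutant libraries, and their part in the Lama2 difference was not tested.

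Lama5 (ENSMUSG00000015647) encodes the alpha 5 chain, which is found in most basement membranes of the embryo, those of epithelia and vessels included. Its FPKM was 14.2, 13.2 and 13.7 in controls and 16.3, 17.0 and 16.9 in mutants. The mutant libraries were close to each other and all above the controls. Control hearts had a mean of 13.7 ± 0.514 (SD, n = 3), against 16.7 ± 0.345 (SD, n = 3) in mutants, and the log2 difference was 0.27 (standard error 0.08, 95% confidence interval 0.09 to 0.45, limma adjusted p = 0.187). The table lists 1 transcript for Lama5, so this value does not depend on how fragments were shared among transcripts. Epithelial markers of lung and gut, from a list of 6 genes, summed to between 11.5 and 17.0 FPKM in controls and between 19.7 and 32.9 in mutants. This was mostly through Krt8 (mean 11.2 in controls and 21.2 in mutants). Of the rest only Cdh1 passed the filter, with overlapping groups. Mean FPKM went from 0.836 in controls to 1.72 in mutants for Cdh1, from 0.861 to 1.87 for Epcam and from 0.527 to 0.554 for Nkx2-1. Those of Shh (0.268 to 0.202) and Sftpc (0.106 to 0.0867) went the other way. Endothelial markers summed to between 291 and 308 FPKM in controls and between 276 and 315 in mutants. Of the 12 endothelial markers 5 were lower and 1 was higher in every mutant library, beside 13% and 7.74% of all genes tested. The part of either in the Lama5 difference was not tested.

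Lama2 and Lama5 differed in opposite directions, and the 250 bases before their RefSeq start sites (GRCm38.p6) are shown to set the promoters beside each other. Both genes lie on the minus strand, and the sequences read 5′ to 3′ along the gene toward the start site, Lama2 from chr10:27616943-27617192 and Lama5 from chr2:180225860-180226109. Capitals mark a GC box, searched as GGGCGG on both strands.
Lama2: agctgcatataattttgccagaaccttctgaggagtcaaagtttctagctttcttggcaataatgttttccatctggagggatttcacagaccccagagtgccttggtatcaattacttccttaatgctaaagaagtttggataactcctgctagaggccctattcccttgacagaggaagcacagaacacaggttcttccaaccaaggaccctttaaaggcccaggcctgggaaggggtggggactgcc
Lama5: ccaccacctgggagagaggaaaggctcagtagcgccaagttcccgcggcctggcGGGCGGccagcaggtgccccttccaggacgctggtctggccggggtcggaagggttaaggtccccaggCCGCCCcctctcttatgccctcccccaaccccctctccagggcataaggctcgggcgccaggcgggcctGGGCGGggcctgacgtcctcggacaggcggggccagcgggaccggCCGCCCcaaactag

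The Lama5 window had a GC content of 72.4%, 19 CpG dinucleotides and 4 GC boxes. The Lama2 window had a GC content of 47.2%, no CpG and no match to the GC box, the TATA box (TATAAA), the CCAAT box (CCAAT) or the AP-1 site (TGANTCA), each searched on both strands. Over all 32851 RefSeq windows of the same length the median was 52.4% GC and 6 CpG, and 32.7% held a GC box, 12.4% a TATA box, 33.8% a CCAAT box and 6.75% an AP-1 site. The Lama5 window held no TATA box, CCAAT box or AP-1 site. RefSeq windows matched 7 of the 10 genes, all but Lama4, Lamc1 and Nid2. The Lamb2 window was like that of Lama2 (43.6% GC, 3 CpG and no match to any of these motifs), with overlapping groups for Lamb2. The windows of Col4a1 (74.4% GC), Col4a2 (73.6%), Nid1 (64.4%) and Lamb1 (62%) were above the median, and of these genes only Col4a2 did not overlap between the groups. Whether the promoter sequence bears on the differences was not tested.

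Lama4 (ENSMUSG00000019846) encodes the alpha 4 chain, best known from vessel walls, and it was the most abundant alpha chain mRNA. Its FPKM was 39.2, 36.0 and 40.8 in controls and 32.0, 36.3 and 36.7 in mutants. Mutant replicate 1 was the lowest library, and the other mutant libraries fell within the control range. The means were 38.7 ± 2.44 (SD, n = 3) and 35.0 ± 2.62 (SD, n = 3), and the log2 difference was -0.14 (standard error 0.09, 95% confidence interval -0.35 to 0.07, limma adjusted p = 0.501).

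**Figure D2:**
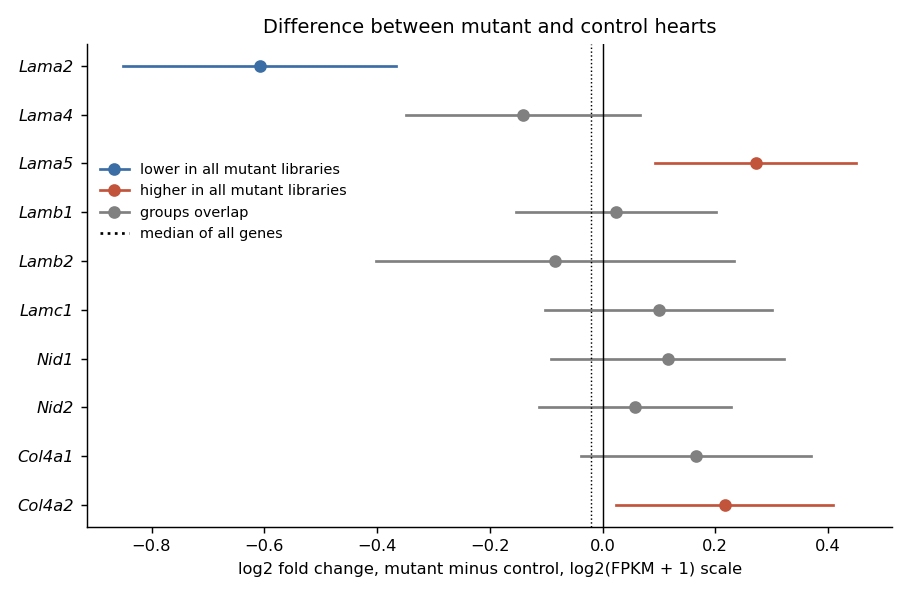
Log2 fold change of each of the 10 genes on the log2(FPKM + 1) scale, mutant minus control, with its 95% confidence interval from limma. Blue and red mark genes whose 3 mutant libraries all lie below or above the 3 control libraries, and the dotted line is the median of all genes tested (-0.02). The intervals of Lama2, Lama5 and Col4a2 do not reach 0 before adjustment over all genes.

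The beta and gamma chains showed no difference beyond the spread of their libraries. Lamb1 (ENSMUSG00000002900), the beta chain gene of most embryonic laminins, had an FPKM of 56.0, 54.9 and 56.5 in controls and of 53.5, 58.6 and 58.3 in mutants. Its log2 difference was 0.02 (standard error 0.08, 95% confidence interval -0.15 to 0.20, limma adjusted p = 0.912), and its sign turned to -0.0071 after quantile normalization. Lamb2 (ENSMUSG00000052911), which encodes the beta chain of neuromuscular junctions and kidney glomeruli, had an FPKM of 16.7, 11.9 and 15.2 in controls and of 14.9, 14.4 and 11.7 in mutants. It was the most variable of the 10 genes, with a coefficient of variation of 16.8% in controls and 12.3% in mutants, and its log2 difference of -0.08 had an interval of -0.40 to 0.23 (limma adjusted p = 0.818). Lamc1 (ENSMUSG00000026478), the gamma chain gene shared by nearly all laminins and needed for the first basement membranes of the embryo, had an FPKM of 57.0, 57.8 and 62.4 in controls and of 58.0, 65.5 and 66.8 in mutants. Only mutant replicate 1 fell within the control range, and the log2 difference was 0.10 (standard error 0.09, 95% confidence interval -0.10 to 0.30, limma adjusted p = 0.638).

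Nidogens bind the laminin gamma 1 chain and collagen IV, and both nidogen mRNAs were slightly higher on average in mutants with overlapping groups. Nid1 (ENSMUSG00000005397) had an FPKM of 34.7, 39.5 and 41.2 in controls and of 39.7, 43.0 and 42.3 in mutants, a log2 difference of 0.12 (standard error 0.09, limma adjusted p = 0.588). Nid2 (ENSMUSG00000021806) had an FPKM of 54.2, 53.2 and 57.2 in controls and of 56.7, 56.7 and 57.9 in mutants, a log2 difference of 0.06 (standard error 0.07, limma adjusted p = 0.762). When libraries were rescaled without erythroid genes, both nidogens and Col4a1 joined the genes that did not overlap, which made 6 of 10 beside 20.9% of all genes, with no adjusted p under 0.05. That rescaling also moved the share of higher genes among those at an unadjusted p under 0.05 from 37.1% (739 of 1990) to 47.7% (961 of 2013) over all genes.

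Col4a1 and Col4a2 encode the collagen IV chains that wind around each other in nearly every basement membrane, and they are transcribed in opposite directions from a shared promoter region. Col4a1 (ENSMUSG00000031502) was the most abundant of the 10 mRNAs, with an FPKM of 85.0, 93.8 and 91.7 in controls and of 93.3, 103 and 108 in mutants. Mutant replicate 1 was just below control replicate 2, so the groups overlapped, and the log2 difference was 0.17 (standard error 0.09, 95% confidence interval -0.04 to 0.37, limma adjusted p = 0.422). Col4a2 (ENSMUSG00000031503) had an FPKM of 51.3, 57.3 and 53.5 in controls and of 59.0, 64.8 and 65.1 in mutants. All mutant libraries were above all control libraries, and the mean was 54.0 ± 3.05 (SD, n = 3) in controls, against 63.0 ± 3.39 (SD, n = 3) in mutants. The log2 difference was 0.22 (standard error 0.08, 95% confidence interval 0.02 to 0.41, limma adjusted p = 0.289). After rescaling without erythroid genes the log2 difference of Col4a2 was 0.24, and the groups again did not overlap.

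The RefSeq start sites of Col4a1 (minus strand, 11312826) and Col4a2 (plus strand, 11312805) lie 21 bases apart, and each gene reads from its start toward that of the other. The RefSeq windows before the start sites held 0 GC boxes for Col4a1 and 2 for Col4a2. The stretch shown here lies after both start sites, where the genes overlap, and is not part of either window. It is read on the plus strand of GRCm38.p6 from chr8:11312805-11312826, and capitals mark a GC box (GGGCGG).
Col4a1 and Col4a2 start sites: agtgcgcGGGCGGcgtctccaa
The ratio of Col4a2 to Col4a1 FPKM was between 0.584 and 0.611 in control and between 0.604 and 0.633 in mutant libraries. The groups overlapped, and the difference of 0.05 on the log2 scale had a two-sided exact permutation p of 0.2, where 0.1 is the smallest that 3 against 3 libraries allow. Among 13259 other genes, Col4a2 was number 24 in likeness to Col4a1, by the root mean square difference of log2 values centred on each gene's mean over the 6 libraries (0.0380). Ppp2r5a (0.0105), Uggt1 (0.0234) and Aldh4a1 (0.0243) were closest. For Lama2 the closest were Ddo (0.0496), AV026068 (0.0560) and Myzap (0.0599), where Ddo went from between 2.03 and 2.72 FPKM in controls to between 1.20 and 1.38 in mutants.

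Because FPKM are per length, the levels of the genes could be ranked, though a sum over transcripts gives short ones the same weight as long ones. By the mean over all 6 libraries of both groups the order was Col4a1 (95.8 FPKM), Lamc1 (61.2), Col4a2 (58.5), Lamb1 (56.3), Nid2 (56.0), Nid1 (40.1), Lama4 (36.8), Lama5 (15.2), Lamb2 (14.1) and Lama2 (7.40). Ranges over the libraries did not overlap between Col4a1 and Lamc1, Nid2 and Nid1, Lama4 and Lama5, and Lamb2 and Lama2, and overlapped between the other neighbours. Some of those neighbours changed places between the groups: in controls Col4a2 (54.0) was below Lamb1 (55.8) and Nid2 (54.8), and Lamb2 (14.6) was above Lama5 (13.7). The place of Lamc1 also rested on its short transcript. The main Lamc1 transcript alone had a mean of 52.8 FPKM in controls and 53.1 in mutants. That was under Col4a2 (54.0 and 63.0) and the main Nid2 transcript (54.8 and 57.1) in both groups. Col4a1 was above 96.1% of the genes tested and Lama2 above 42.9%. The summed FPKM of the 10 genes was 418, 426 and 442 in controls and 429, 465 and 469 in mutants, which overlapped between the groups. The overlap depended on the scaling, since after rescaling without erythroid genes the sum was 422, 422 and 430.1 in controls and 438, 459 and 478 in mutants, higher in each mutant library.

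The make-up of the alpha chain mRNAs, as shares within a library, is not altered by a constant factor per library. The summed FPKM of all 5 alpha chain genes was 66.4, 61.5 and 66.7 in controls and 58.1, 63.1 and 63.7 in mutants, and the groups overlapped. Lama2 made up 15.0%, 13.0% and 14.2% of this sum in controls and 10.3%, 8.34% and 8.92% in mutants. Lama5 made up 21.4%, 21.5% and 20.5% in controls and 28.1%, 26.9% and 26.5% in mutants. Lama4 made up 59.0%, 58.5% and 61.1% in controls and 55.0%, 57.5% and 57.6% in mutants. The share of Lama5 was thus higher, and those of Lama2 and Lama4 lower, in every mutant library, and shares of 1 sum are not independent of each other. The alpha chain sum over the gamma chain sum was 1.09, 1.01 and 0.997 in controls and 0.935, 0.902 and 0.900 in mutants, lower in each mutant library, but the groups overlapped when transcripts were weighted by length. Lamc1 made up 93.7 ± 0.628% (SD, n = 3) of the gamma chains in controls and 93.8 ± 0.539% (SD, n = 3) in mutants, and Lamb1 78.8 ± 2.42% and 79.9 ± 2.47% (SD, n = 3 each) of the beta chains.

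**Figure D3:**
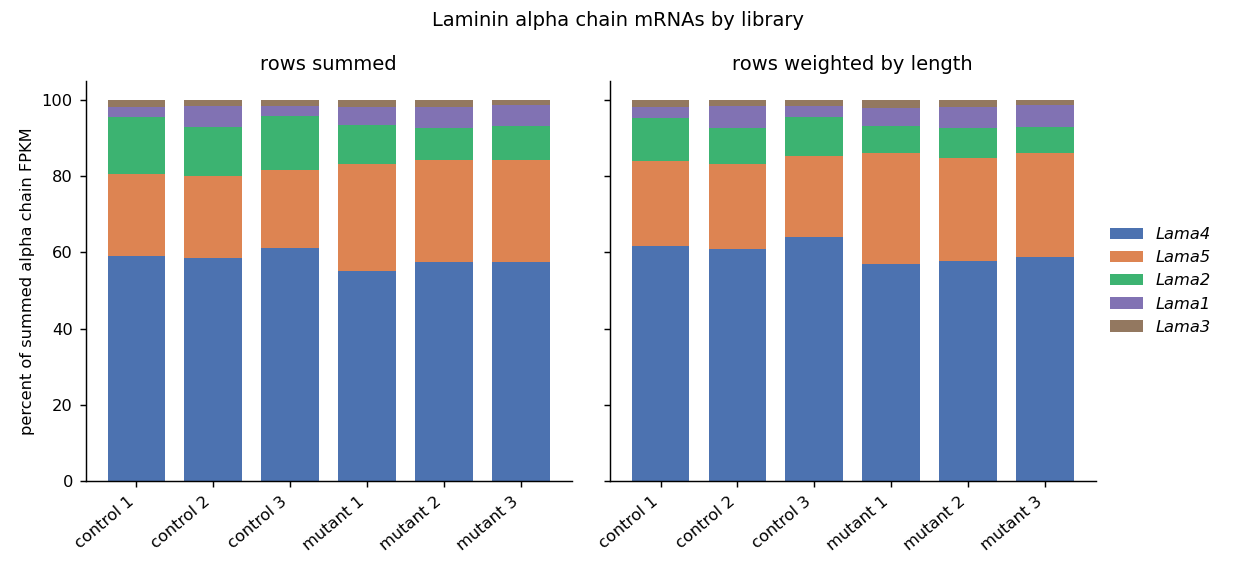
Share of each laminin alpha chain gene in the summed FPKM of the 5 alpha chains, as a percent, by library. The left panel sums the transcripts of a gene as listed, and the right panel weights each by its length. In both, the Lama5 share is larger and the Lama2 share smaller in each mutant library than in any control library.

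Ratios within a library are not altered by a constant factor per library, and 7 were compared. The ratio of Lama5 to Lama2 was between 1.43 and 1.65 in control and between 2.73 and 3.22 in mutant libraries, a difference of 0.98 on the log2 scale. The ratio of Lama4 to Lama2 was between 3.94 and 4.49 in control and between 5.34 and 6.89 in mutant libraries (log2 difference 0.55), and that of Lama2 to Lamc1 between 0.139 and 0.175 in control and between 0.0803 and 0.103 in mutant libraries (log2 difference -0.79). The sum of both collagen IV genes over that of the 6 laminin genes was between 0.706 and 0.831 in control and between 0.844 and 0.881 in mutant libraries (log2 difference 0.19). These 4 ratios did not overlap between the groups, and each had the smallest two-sided exact permutation p of 0.1 (adjusted p = 0.175 over 7 ratios), so the design could not carry them under 0.05. Lama2 is a term of 3 of the 4 and part of the laminin sum in the other, and its low level was known when the genes were picked, so they are not independent of the Lama2 difference. The ratios of Lamb2 to Lamb1 (log2 difference -0.11) and of Nid2 to Nid1 (log2 difference -0.06) overlapped, each with a two-sided exact permutation p of 0.6.

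Lama2 was also followed by transcript, since the table lists 3. The full-length transcript ENSMUST00000092639 has 9614 bases and 65 exons in GENCODE M21, ENSMUST00000189575 (4244 bases) covers exons 1 to 27 at the 5′ end, and ENSMUST00000219763 (3383 bases) overlaps 22 exons between exons 42 and 65 at the 3′ end. The full-length transcript had an FPKM of 5.42, 4.07 and 4.88 in controls and of 2.82, 4.65 and 3.50 in mutants. Mutant replicate 2 lay within the control range, and the log2 difference was -0.33 (standard error 0.18, limma adjusted p = 0.574 over 20370 transcripts). The 3′ transcript had an FPKM of 2.78, 2.74 and 4.05 in controls and of 1.75, 0.284 and 1.84 in mutants, all mutant libraries below all controls. Its log2 difference was -0.95 (standard error 0.34, limma adjusted p = 0.463), and it was the only Lama2 transcript at an unadjusted p under 0.05, beside 10.2% of all transcripts tested (6.22% lower), and the only one with no overlap, beside 17.6% (10.8% lower). The 5′ transcript was at 1.75, 1.20 and 0.561 FPKM in controls and at 1.43, 0.330 and 0.341 in mutants, with overlapping groups (log2 difference -0.37, limma adjusted p = 0.714). These sizes rested on single libraries: the full-length difference was -0.19 without mutant replicate 1, that of the 3′ transcript -0.57 without mutant replicate 2, and that of the 5′ transcript -0.59 without control replicate 3 and -0.23 without mutant replicate 2 or 3.

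In mutant replicate 2 the full-length transcript took 88.3% of the summed Lama2 FPKM, beside 47.0% to 61.6% in the other libraries. Both shorter transcripts overlap exons of the full-length one, so fragments from there had to be divided by an estimate, and a sum of FPKM gives the short transcripts the same weight as the long one. With each transcript weighted by its length, a choice made after the data were seen, Lama2 was at 7.17, 5.56 and 6.55 in controls and at 4.06, 4.90 and 4.30 in mutants. The groups still did not overlap, and the log2 difference was -0.45 (limma adjusted p = 0.148). The alpha 2 share of the alpha chains was then 11.3%, 9.42% and 10.3% in controls and 7.23%, 7.81% and 6.90% in mutants. Lama2 was thus lower on average with each way of counting, with a size of -0.33 and overlapping groups for the full-length transcript alone and of -0.61 with no overlap for the sum.

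**Figure D4:**
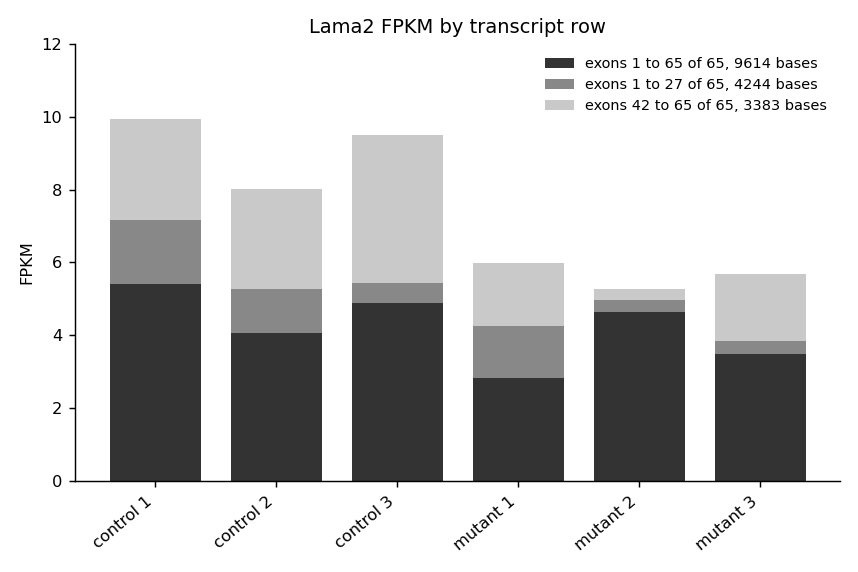
FPKM of the 3 Lama2 transcripts in each library, stacked, with their exons counted along the full-length transcript from its 5′ end. The full bars are lower in the 3 mutant libraries, and in mutant replicate 2 the full-length transcript is 88.3% of the bar.

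Transcripts other than the main one also bore on Lamc1, Lamb2 and Lamb1. The short Lamc1 transcript ENSMUST00000161744 (1447 bases) was at 3.94, 4.85 and 10.1 FPKM in controls and at 11.2, 9.75 and 9.90 in mutants, between 6.91% and 19.3% of the Lamc1 sum. The main Lamc1 transcript alone had a log2 difference of 0.0047, beside 0.10 for the sum. A Lamb2 transcript of 473 bases, ENSMUST00000195483, took between 0% and 14.8% of the Lamb2 sum, and the main one alone had a log2 difference of -0.14. The Lamb1 transcript ENSMUST00000169088, of nearly the same length as the main one, was at 14.9 FPKM in mutant replicate 3 and between 0.799 and 3.45 in the other libraries, while the main Lamb1 transcript was at 43.1 there and between 50.0 and 57.1 elsewhere. The sum for that library, 58.3, was inside the range of the others. Col4a2, Lama4, Lama5 and Nid1 are listed with 1 transcript each.

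The wider basement membrane held 79 further genes in 6 lists (other laminin chains, other collagen IV chains, proteoglycans and other components, receptors, biosynthesis, and proteases with their inhibitors), of which 77 were in the table and 68 passed the filter. Of the 68, none reached an adjusted p under 0.05 in limma, 6 stood at an unadjusted p under 0.05 (2 lower and 4 higher), and 13 did not overlap between the groups (3 lower and 10 higher). Their median log2 fold change was 0.02. Over all genes tested 15% stood at an unadjusted p under 0.05 and 20.8% did not overlap, with a median of -0.02. Without mutant replicate 3, 2 of these genes had an adjusted p under 0.05, beside 261 (1.98%) of 13166 genes, and without mutant replicate 2 it was 1 gene, beside 126 (0.961%) of 13113.

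Of 5 other laminin chain genes, 4 were tested and all overlapped between the groups. Lama1, an alpha chain gene of the earliest embryonic basement membranes, was at 1.77, 3.38 and 1.83 FPKM in controls and at 2.71, 3.42 and 3.65 in mutants (log2 difference 0.38, limma adjusted p = 0.393). Without control replicate 2 the difference was 0.60, and Lama1 then stood at an unadjusted p under 0.05 (limma adjusted p = 0.240). Lamc3 and Lama3 had mean FPKM of 2.04 and 1.03 over 6 libraries, with log2 differences of 0.10 and -0.03, the latter 0.084 after quantile normalization. Of the 4 other collagen IV chain genes, Col4a5 and Col4a6, which encode less widespread chains, were tested. Col4a5 had a log2 difference of -0.11 and Col4a6 one of -0.24 (limma adjusted p = 0.605 and 0.390), both with overlapping groups and neither at an unadjusted p under 0.05 (Col4a6 was, without control replicate 2 or mutant replicate 2, and its difference was -0.14 without mutant replicate 1), while Col4a3 and Col4a4 stayed under 0.2 FPKM in each library.

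Among proteoglycans and other components, 20 of 22 genes were tested. Of the 20, 3 stood at an unadjusted p under 0.05 (Tinagl1 higher, Frem1 and Smoc1 lower), beside 15% of all genes. No overlap was seen for 5 (3 of these higher), beside 20.8% of all genes. Without control replicate 1 only Tinagl1 kept an unadjusted p under 0.05. Tinagl1, a secreted matrix protein that binds laminin and integrins, was at 11.3, 11.8 and 13.6 FPKM in controls and at 20.7, 15.7 and 23.4 in mutants. All mutant libraries were above the controls, with a mean of 12.2 ± 1.23 (SD, n = 3) in controls, against 19.9 ± 3.92 (SD, n = 3) in mutants and a log2 difference of 0.65 (standard error 0.14, limma adjusted p = 0.141). Without mutant replicate 2, where 126 genes passed the adjusted threshold, it had an adjusted p of 0.0345 in limma (log2 difference 0.80). Frem1, whose product anchors epithelial basement membranes, was at 11.5, 7.46 and 9.26 FPKM in controls and at 6.74, 7.23 and 5.88 in mutants (log2 difference -0.43, limma adjusted p = 0.242). Smoc1, a calcium-binding basement membrane protein gene, was at 2.60, 2.14 and 1.86 FPKM in controls and at 1.58, 1.40 and 1.38 in mutants (log2 difference -0.38, limma adjusted p = 0.249). Hspg2, which encodes perlecan and is named for its role, was at 58.3 ± 4.22 FPKM (SD, n = 3) in controls, against 59.7 ± 3.60 (SD, n = 3) in mutants, a log2 difference of 0.03 (limma adjusted p = 0.893).

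Of 13 receptor genes, 11 were tested. None of them stood at an unadjusted p under 0.05, beside 15% of all genes (2 without mutant replicate 3, beside 15.3%). The groups did not overlap for 1, beside 20.8% of all genes. Dag1, the gene of dystroglycan, was at 44.2, 60.6 and 52.1 FPKM in controls and at 52.4, 42.4 and 70.8 in mutants, a log2 difference of 0.06 with a standard error of 0.19 (limma adjusted p = 0.915). Its libraries varied widely in both groups, and without mutant replicate 3 the difference was -0.14. Ddr2, a receptor tyrosine kinase for collagens, was at 4.41, 4.41 and 5.56 FPKM in controls and at 14.4, 13.8 and 3.13 in mutants. Mutant replicates 1 and 2 were far above the controls and the library labelled mutant replicate 3 was below them, so the log2 difference of 0.77 had an adjusted p of 0.458 in limma with all libraries, and one of 1.39 an adjusted p of 0.00121 without mutant replicate 3, where 261 genes passed the adjusted threshold beside 11 with all libraries. Without mutant replicate 1 or 2 the Ddr2 difference was 0.44 and 0.47 (limma adjusted p = 0.733 and 0.660). Sdc4 and the integrin gene Itga1 had log2 differences of 0.12 and 0.13, with overlapping groups. Itgb1, the integrin beta chain gene common to most laminin receptors and named for that role, had a log2 difference of 0.00 (limma adjusted p = 0.996).

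Of the biosynthesis genes, which fold, modify and secrete collagen IV or glycosylate dystroglycan, 19 of 21 were in the table and tested. In 16 the fold change was above 0 and in 3 under 0, the median was 0.16 beside -0.02 over all genes, and 6 were higher in every mutant library (Plod1, Plod3, P4ha2, P4hb, Colgalt1 and Pomt2), beside 7.74% of all genes. None reached an adjusted p under 0.05, and 3 stood at an unadjusted p under 0.05, beside 15% of all genes. Plod3, a lysyl hydroxylase and collagen glucosyltransferase gene, was at 13.0, 13.5 and 13.8 FPKM in controls and at 16.0, 16.7 and 14.8 in mutants (log2 difference 0.22, limma adjusted p = 0.279). P4ha2, a catalytic subunit gene of prolyl 4-hydroxylase, was at 12.7, 11.1 and 12.5 FPKM in controls and at 23.1, 14.4 and 13.5 in mutants (log2 difference 0.42, limma adjusted p = 0.327, and 0.19 without mutant replicate 1). P4hb, which encodes the other subunit of that enzyme, was at 101, 117 and 119 FPKM in controls and at 124, 141 and 128 in mutants (log2 difference 0.22, limma adjusted p = 0.332). The number at an unadjusted p under 0.05 was 7 when libraries were rescaled without erythroid genes (beside 15.2% of all genes) and 6 without mutant replicate 3 (beside 15.3%), but 0 without control replicate 2 (beside 12.6%) and 1 without any of the other 4 libraries (beside 9.02% to 16.6%).

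Matrix proteases and their inhibitors gave 12 tested genes of 14, with none at an unadjusted p under 0.05. That number was 4 without mutant replicate 3 (beside 15.3% of all genes), and 1 without mutant replicate 2, after quantile normalization or with the replicate number as a block (beside 15.5% to 16.7%). Timp3, a matrix-bound inhibitor of metalloproteinases, was at 26.6, 26.8 and 28.6 FPKM in controls and at 20.0, 24.8 and 25.0 in mutants, lower in every mutant library (log2 difference -0.23, limma adjusted p = 0.344, and -0.13 without mutant replicate 1). Mmp15 and Adamts1 had log2 differences of -0.21 each and overlapped, and without mutant replicate 3 they were at -0.36 and -0.061 (-0.097 for Mmp15 without mutant replicate 1 and -0.31 for Adamts1 without control replicate 2). For the matrix outside the basement membrane, a list of 19 interstitial genes was read from the same fit. Of these, 2 stood at an unadjusted p under 0.05, 1 in each direction, beside 15% of all genes, and the median was 0.00. The number was 4 without mutant replicate 3 (beside 15.3% of all genes) and 1 without control replicate 2, control replicate 3 or mutant replicate 1 (beside 11.4% to 12.6%). Eln, the elastin gene, was at 15.3, 13.5 and 15.2 FPKM in controls and at 11.9, 8.13 and 4.65 in mutants (log2 difference -0.84, limma adjusted p = 0.205, and -0.53 without mutant replicate 3), Col6a2 had a log2 difference of 0.25 (limma adjusted p = 0.281), and Vcan one of -0.17 with overlapping groups.

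**Figure D5:**
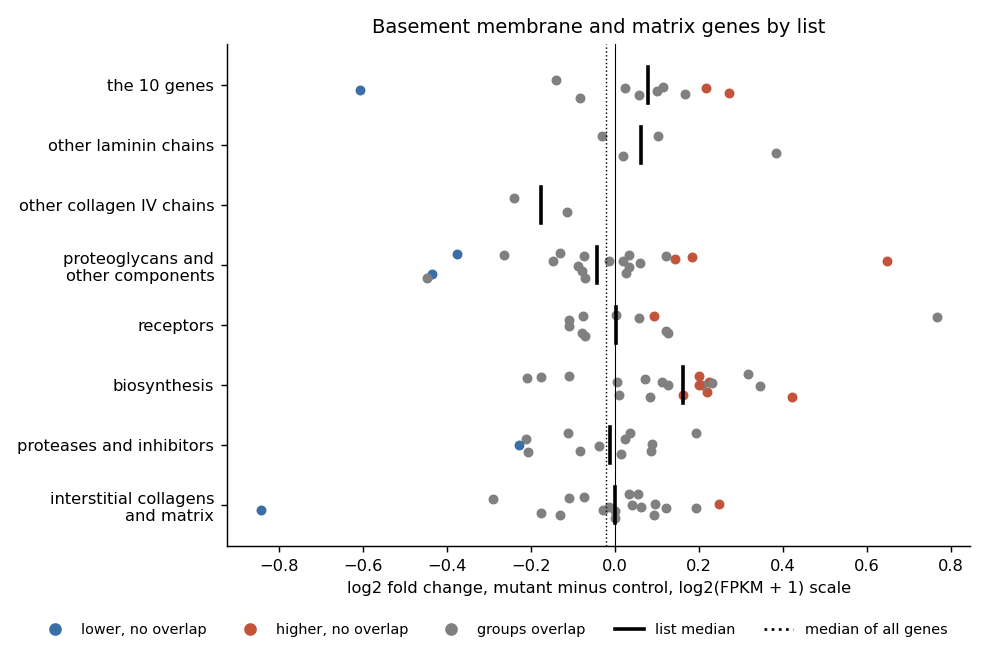
Log2 fold change of each tested gene on the log2(FPKM + 1) scale, mutant minus control, by list. Each point is 1 gene, spread vertically only for sight, colored where the groups do not overlap; short bars are list medians and the dotted line the median of all genes tested. Lama2 stands far to the left of the other laminins, and the biosynthesis list has its median at 0.16 and no gene that is lower in all mutant libraries.

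Other cells that make basement membrane were read from their markers. Epicardial markers (8 genes) summed to between 156 and 176 FPKM in controls and between 161 and 226 in mutants, with none lower and 2 higher in every mutant library, beside 13% and 7.74% of all genes tested. Markers of cushion mesenchyme and fibroblasts (8 genes) summed to between 232 and 242 FPKM in controls and between 213 and 285 in mutants, and those of smooth muscle and pericytes (8 genes) to between 633 and 721 in controls and between 469 and 655 in mutants, with 3 of 7 tested genes lower in every mutant library, again beside 13%. Macrophage markers (8 genes) summed to between 14.6 and 17.1 FPKM in controls and between 12.5 and 19.5 in mutants, and liver markers (8 genes) to between 24.1 and 322 in controls and between 96.7 and 193 in mutants. No marker of any list was at 0 in every library. Their part in the differences of Lama2, Lama5 and Col4a2 was not tested.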

How the data were processed

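Total RNA of 3 control and 3 mutant heart libraries was depleted of ribosomal RNA and sequenced from strand-specific libraries. The authors deposited a table of FPKM per transcript (60776 transcripts). Their notes name Bowtie2 2.2.8, HISAT2, StringTie 1.3.1, Cuffdiff 2.1.1 and the build mm9, with no role or order, while the deposited transcript identifiers are of Ensembl, so no coordinates were taken from the table. Identifiers were joined without their version (8 more genes joined), FPKM were summed per gene, and log2(FPKM + 1) was compared with limma 3.58.1 (R 4.3.3, moderated variance with trend) over 13260 genes with at least 1 FPKM in at least 3 of 6 libraries, with Benjamini-Hochberg adjustment over all of them. Fold changes on this scale understate those of low genes. Differences between libraries of a group are those between pools of hearts. Transcript lengths and exons came from GENCODE M21, which matched 57382 transcripts, and promoter windows from RefSeq. The fit was tested on simulated data. Alternatives were other pseudocounts, filters, scalings, the replicate number as a block, the most abundant or length-weighted transcripts and leaving out each library. The members and lists were chosen with earlier results of these data known, the low Lama2 value among them. Named were all 10 genes, Mrps5, Dag1, up to 3 genes of each list with the smallest p, and the genes most like Col4a1 and Lama2. Hspg2, Itgb1, Krt8 and the other lung and gut markers, Col4a3, Col4a4 and the 6 biosynthesis genes that did not overlap were named after their values were seen. Mia2 and Ero1a were not found in the table under these symbols.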

Additional observations from a re-analysis of the deposited data

How the results depend on the processing

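Lama2 was lower and Lama5 and Col4a2 higher under all 16 alternatives: -0.69 to -0.33 for Lama2 (adjusted p 0.0501 to 0.482, unadjusted p under 0.05 in 15, not for the most abundant transcript alone), 0.25 to 0.30 for Lama5 (16 of 16) and 0.18 to 0.26 for Col4a2 (12 of 16); Col4a1 was at 0.12 to 0.22 (3 of 16). The number of the 10 genes with no overlap was 6 after quantile normalization (beside 21.2% of all genes) and after rescaling without erythroid genes (beside 20.9%). It was 3 to 7 when 1 library was left out. It was 7 without mutant replicate 1 and 6 without control replicate 2 or 3, where 30.1% to 31.2% of all genes did not overlap. It was 3 without control replicate 1, mutant replicate 2 or mutant replicate 3, beside 26.8%, 35.7% and 32.6% of all genes. In the wider lists 11 genes stood at an unadjusted p under 0.05 after rescaling without erythroid genes (beside 15.2% of all genes) and 2 to 15 when 1 library was left out, lowest without control replicate 1 (beside 9.02%) and highest without mutant replicate 3 (beside 15.3%), and 0 to 2 at an adjusted p under 0.05. Of the Lama2 transcripts, 0 stood at an unadjusted p under 0.05 with 0.1 added to FPKM and 0 to 2 when 1 library was left out, 0 without any 1 of the controls and 2 without mutant replicate 2. Of the 7 ratios, 2 did not overlap with the most abundant transcripts alone, where Lama5 to Lama2 was 0.70; it was 0.83 with length weights. Signs turned for Lamb1 (-0.13 with the most abundant transcript, -0.0071 after quantile normalization), Lama3 (0.084 after quantile normalization; -0.068 to 0.059 with 1 library left out, above 0 without mutant replicate 3), Lamb2 (-0.21 to 0.014, above 0 without control replicate 1 or mutant replicate 3) and Dag1 (-0.14 to 0.23, under 0 without control replicate 1 or mutant replicate 3). The causes were not tested.

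With the replicate number as a block, the adjusted p was 0.105 for Lama2, 0.197 for Lama5 and 0.214 for Col4a2, and the 10 genes again gave 3 at an unadjusted p under 0.05. Deviations of same-numbered libraries from their group means correlated at 0.217, 0.110 and 0.0901, and each library correlated best with its own number. The labels name no pairs, and the main fit did not take the libraries as pairs. Whether same-numbered libraries share an origin was not tested. FPKM give no depth, and 3 libraries a group limit the precision.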
